A study of Mus musculus with 9 samples.

Results

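Lysosomal hydrolases, lysosomal membrane proteins and subunits of the lysosomal proton pump were compared between 3 populations of mouse myeloid cells. The members were 45 listed genes, with cathepsins and nucleases left out, and each was found through a probe set whose single gene symbol in the platform annotation was that gene. All 45 were measured, out of 19938 genes with such a probe set, and the brightest probe set was taken for the 1 member, Arsb, that had more than 1. The series contrasts T cell zone macrophages (TZM) of the lymph node with CD8a+ dendritic cells (DC) and with microglia, the resident macrophages of the brain, on Affymetrix gene arrays with 3 biological replicates each. The animals of all groups were CX3CR1 gfp+/-, so every population, DC included, came from mice in which 1 Cx3cr1 copy carries the green fluorescent reporter. The labels name no treatment, age or sex and do not say whether animals were pooled. TZM were sorted as GFP-high, MertK+, CD169- and CD11b+ cells, microglia as GFP-high, CD11b+ and CD45+ cells, and DC as CD64- cells that were high for CD11c, high for MHC class II, and CD8a+. The brain gate as described holds no marker that separates microglia from other GFP-high brain macrophages. The source of the DC is unsettled, as their tissue label says lymph node while the sorting text calls them splenic.

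The lysosome is the acid compartment in which a phagocyte breaks down what it has engulfed, including dead cells. Its soluble hydrolases cut sugars, sulfated sugars, lipids and proteins, a proton pump of many subunits keeps the lumen acid, and heavily glycosylated membrane proteins line the limiting membrane. Many genes of this system share a promoter element bound by the MiT family of transcription factors, Tfeb, Tfe3, Mitf and Tfec. Macrophages are known for strong degradation, whereas dendritic cells are known to degrade antigen more slowly, which leaves peptides for presentation.

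Levels are log2 values from robust multi-array averaging (RMA), so a difference of 1 is a 2-fold change. Levels of different genes are not comparable, because probe sets differ in brightness. A gene was called different at a Benjamini-Hochberg adjusted p under 0.05 over all 19938 genes and an absolute log2 difference of at least 1, and SE is the standard error of the difference from that limma fit. Markers of the sorted populations were looked at first. Of 7 measured macrophage markers, 7 were at 6 or more on average in TZM and in microglia and 1 in DC. All 8 type 1 DC markers were at 6 or more in DC, and 3 in TZM and in microglia. Microglia markers were not restricted to microglia, as 5 of 7 were at 6 or more in TZM and 2 in DC, against 7 in microglia. The purinergic receptor P2ry12 was at 9.80 ± 0.07 (SD, n = 3) in TZM, 11.48 ± 0.03 in microglia and 4.82 ± 0.07 in DC, and Tmem119, a membrane protein, was at 9.18 ± 0.28, 11.56 ± 0.05 and 4.54 ± 0.14. Sall1, a microglial transcription factor, was at 4.48 ± 0.12 in TZM and 9.84 ± 0.34 in microglia, and all 7 markers were called lower in TZM than in microglia. Among other cell types, the salivary gland list stood out, with 3 of 5 genes at 6 or more in TZM and 0 in the other populations. Its mean level ran from 6.39 to 7.998 over TZM arrays, from 3.80 to 3.98 over DC arrays and from 3.76 to 3.79 over microglia arrays. Of 7 neutrophil markers, 3 were at 6 or more in TZM and 0 in the others, with array means of 5.43 to 6.46 in TZM and 4.08 to 4.22 in DC, and the defining marker Ly6g was at 3.16 in TZM. The 3 were Cxcr2, a chemokine receptor, at 9.11 ± 0.30 in TZM, and S100a8 and S100a9, subunits of calprotectin, at 7.50 ± 1.70 and 7.83 ± 1.59. Of 6 T cell markers, Cd4 and Cd3e were at 6 or more in TZM. Array means of the list were 6.08 to 6.35 for TZM, 5.01 to 5.14 for DC and 4.52 to 4.63 for microglia. Cd4 had a TZM mean of 10.83 ± 0.24, which exceeded DC by 4.07 and microglia by 5.51, both called. Cd3d and Cd3g, with TZM means of 4.89 and 4.44, were called higher than in microglia, by 1.20 and 1.155. Of the list, 1 was called higher and 0 lower than in DC, and 3 and 0 against microglia. B cell, stromal and endothelial, neural and choroid plexus, and erythroid lists had 2 of 5, 3 of 8, 1 of 7 and 0 of 1 measured genes at 6 or more in TZM. The same counts were 2, 1, 1 and 0 in DC and 2, 3, 2 and 0 in microglia, though partly for different genes. In TZM, DC and microglia, Cd79b was at 9.27, 6.63 and 7.85, Blnk at 8.59, 5.24 and 9.47, and Ms4a1 at 4.82, 7.11 and 4.03. Of these B cell markers, Cd79b and Blnk were called higher and Ms4a1 lower in TZM than in DC. Cdh5, an endothelial marker, was at 7.65, 5.38 and 5.24, called higher in TZM than in DC and in microglia. Lyve1, of the same list, was called lower in TZM than in microglia. Ttr, of the neural and choroid plexus list, varied between the microglia arrays, at 12.15, 5.48 and 11.83. Its means were 4.23 in TZM and 4.18 in DC. The part of other cells in the members' levels was not tested.

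Most members that differed from DC were lower in DC than in both macrophage populations, and a few were highest in DC. In TZM against DC, 21 of 45 members were higher and 5 lower, where 4.71% of all genes tested were called higher and 4.03% lower. In microglia against DC, 18 members were higher and 5 lower (5.15% and 6.01% of all genes). Both comparisons use the same DC arrays. TZM and microglia were closer to each other, with 8 members higher in TZM and 1 lower (4.25% and 3.4% of all genes). The median difference of the members was 0.90 for TZM minus DC, 0.31 for TZM minus microglia and 0.65 for microglia minus DC, beside medians over all genes of 0.02, 0.01 and 0.01.

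Most of these genes were bright, and bright genes are called more often. A level of 6 or more in at least 3 arrays was reached by 43 members and by 7678 of all genes. Among the latter 10.8% were called higher and 8.99% lower in TZM than in DC, 9.66% higher and 7.62% lower in TZM than in microglia, and 11.8% higher and 13.8% lower in microglia than in DC. Arsa and Atp6v0d2 did not reach the level. Of the members, 11.1% were called lower in TZM than in DC and 11.1% lower in microglia than in DC. These shares are near the 8.99% and 13.8% of genes at the level. In a population of sorted cells, more RNA per cell and more cells with the RNA cannot be told apart.

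**Figure D1:**
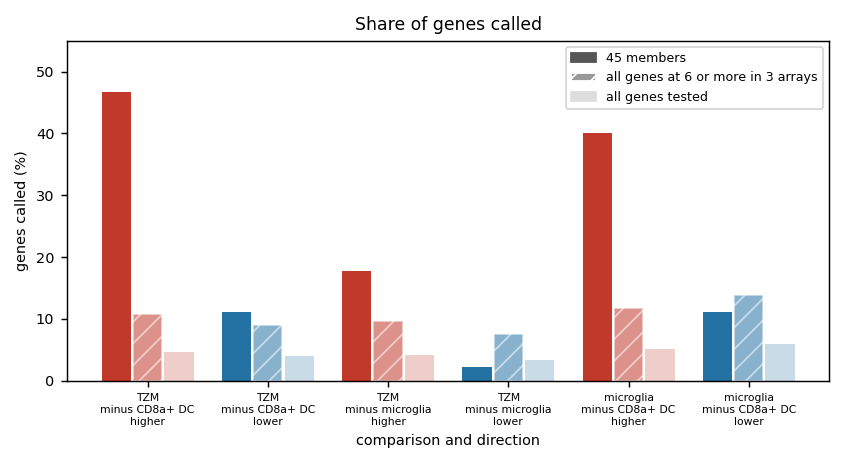
Share of genes called higher (red) or lower (blue) in each comparison, in percent, for the 45 members, for all genes at 6 or more in 3 arrays (hatched) and for all genes tested (pale). The members' bars for higher genes stand at 46.7% for TZM minus DC and 17.8% for TZM minus microglia, while 11.1% of members were lower in TZM than in DC and 2.22% lower in TZM than in microglia.

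**Figure D2:**
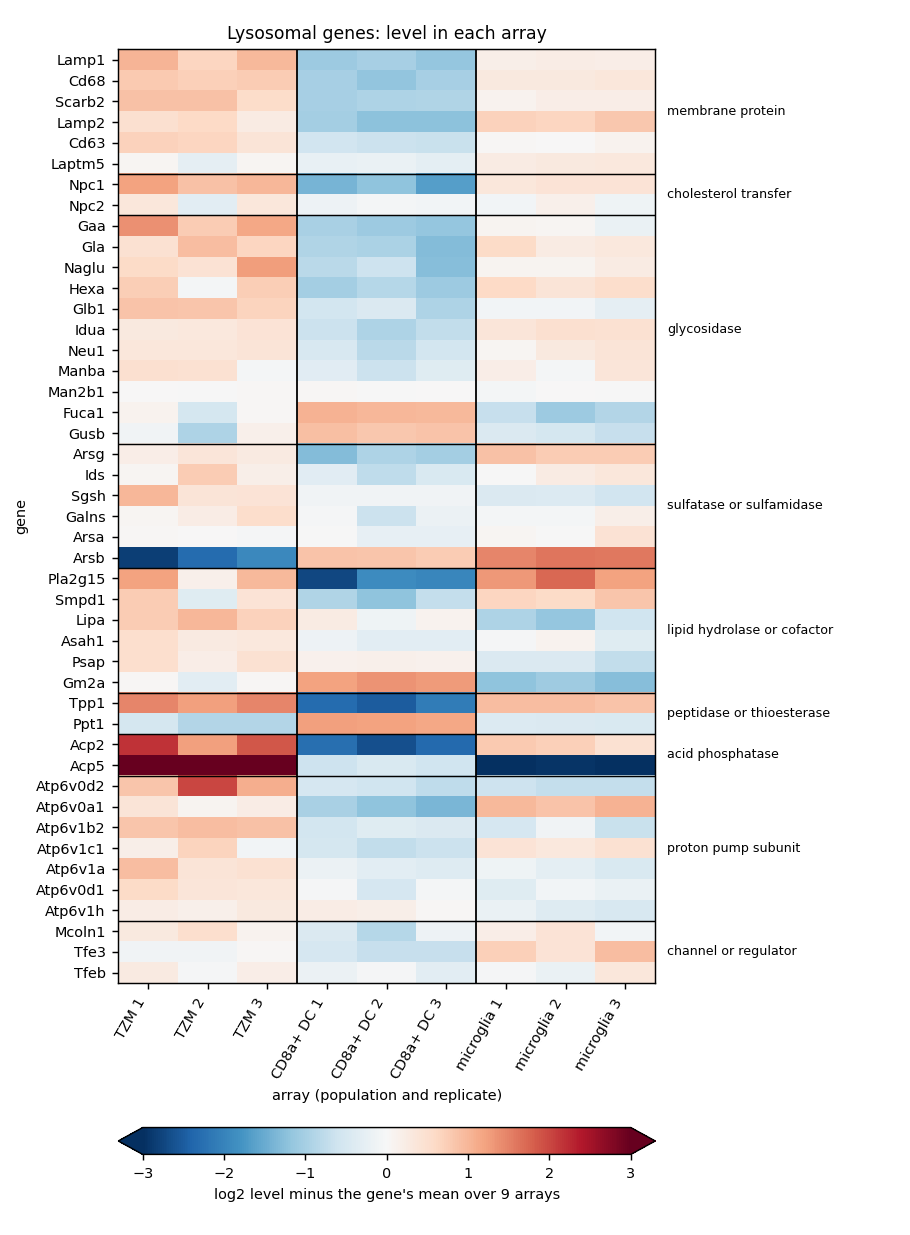
Level of each member in each of the 9 arrays, as log2 level minus the gene's own mean over the arrays, with genes ordered by role and then by the difference between TZM and DC. The colour scale ends at 3 in either direction, which Acp5 passes in TZM and, at the low end, in microglia replicate 1. Most rows are blue in the DC arrays, and Gm2a, Ppt1, Fuca1, Gusb and Arsb are among the rows that are red there.

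Among membrane proteins of the lysosome, 5 of 6 were higher in TZM than in DC (4.71% of all genes). In microglia 4 were higher than in DC (5.15% of all genes), and 0 were called between TZM and microglia. Lamp1 (chromosome 8), an abundant glycoprotein of the limiting membrane, was at 11.45, 11.09 and 11.41 in the 3 TZM arrays, at 9.34, 9.44 and 9.26 in DC and at 10.62, 10.65 and 10.63 in microglia. The groups did not overlap, with TZM highest. The difference between TZM and DC was 1.97 (SE 0.10, adjusted p = 2.2e-06), and that between TZM and microglia was 0.68 (SE 0.10, adjusted p = 0.0014), under the fold minimum.

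Lamp2, its paralog with a part in autophagy, was at 10.52, 10.63 and 10.27 in TZM, 9.01, 8.80 and 8.80 in DC, and 10.71, 10.68 and 10.85 in microglia. DC were lowest, and the TZM and microglia arrays lay close without overlapping. TZM were above DC by 1.60 (SE 0.11, adjusted p = 1.2e-05), and the TZM minus microglia difference of -0.27 (SE 0.11) had an adjusted p of 0.13. Cd68, a heavily glycosylated protein used as a macrophage marker, was at 12.07, 11.99 and 12.04 in TZM, 10.29, 10.09 and 10.30 in DC, and 11.59, 11.57 and 11.61 in microglia. It had the same order as Lamp1 with no overlap, and TZM exceeded DC by 1.81 (SE 0.07, adjusted p = 4.1e-07).

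Scarb2, the membrane receptor that carries glucocerebrosidase to the lysosome, was higher in TZM than in DC by 1.71, and in microglia than in DC by 1.11. The tetraspanin Cd63 was higher in TZM than in DC by 1.20, while its difference between microglia and DC was 0.68, under the fold minimum. Laptm5, a lysosomal membrane protein of blood cells, was at 12.53, 12.20 and 12.53 in TZM, 12.24, 12.27 and 12.18 in DC, and 12.72, 12.76 and 12.79 in microglia. It was the member of this group called in no comparison, and TZM and DC arrays overlapped.

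**Figure D3:**
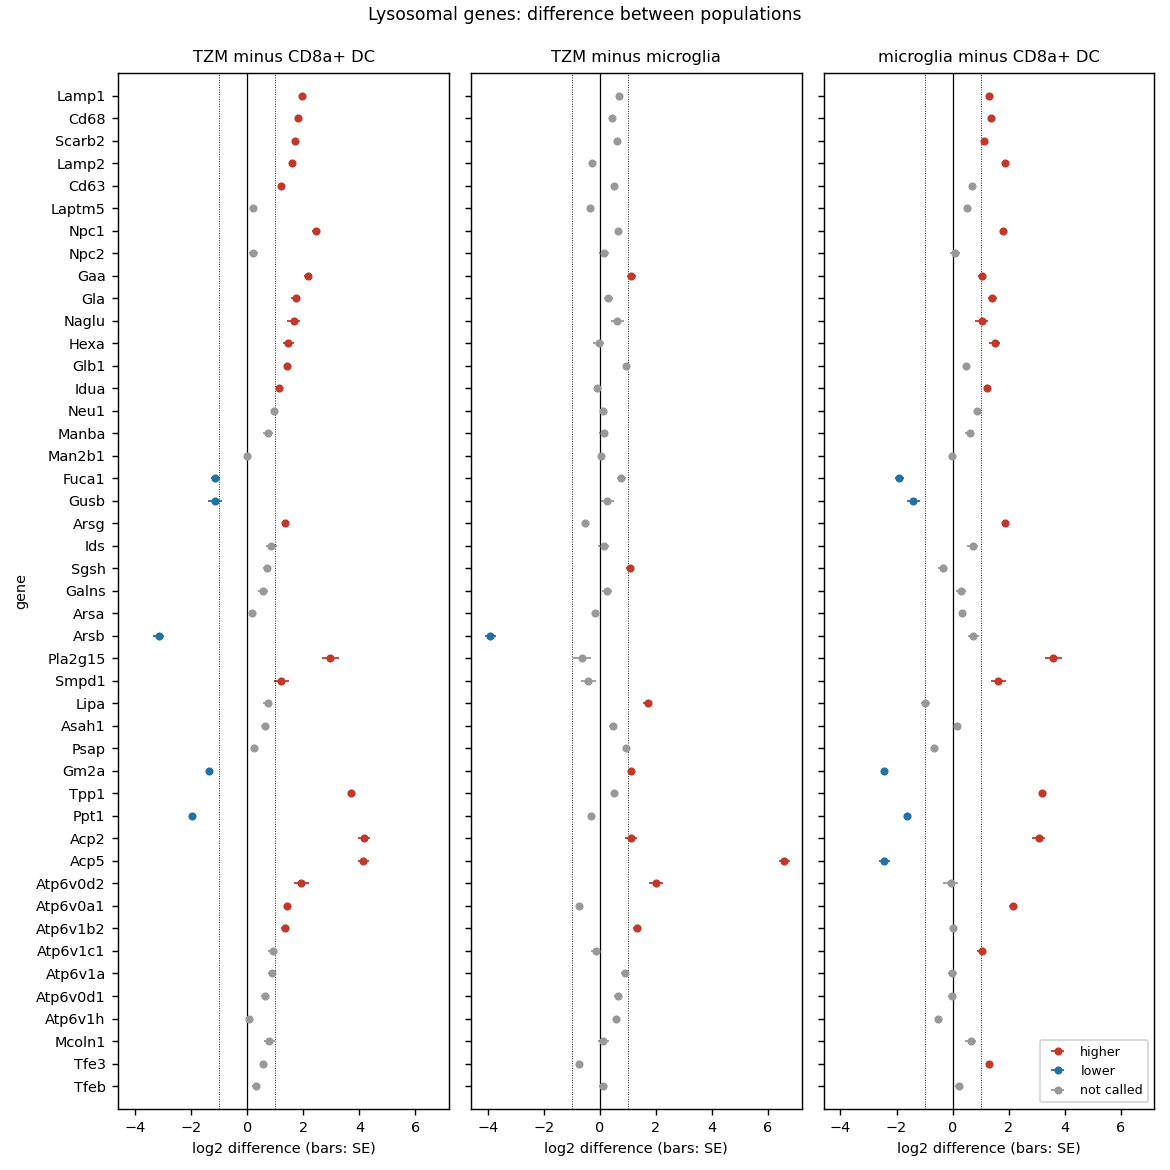
Difference in log2 level between populations for each member, with the standard error of the fit as bars and dotted lines at the fold minimum of 1, coloured by call. In the left and right panels most points lie right of 0, and in the middle panel most lie within the dotted lines, with Acp5 at 6.58 and Arsb at -3.91 far outside.

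Npc1 and Npc2 together move cholesterol out of the lysosome. Npc1, the membrane protein of the pair, was at 9.73, 9.39 and 9.51 in TZM, 7.12, 7.30 and 6.87 in DC, and 8.85, 8.92 and 8.93 in microglia. The groups did not overlap, with TZM highest and DC lowest, and TZM exceeded DC by 2.44 (SE 0.12, adjusted p = 1.9e-06). Npc2, the soluble partner, was called in no comparison, with levels of 11.15 ± 0.38, 10.93 ± 0.04 and 11.01 ± 0.16 in TZM, DC and microglia.

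Of 11 glycosidases, 6 were higher and 2 lower in TZM than in DC (4.71% and 4.03% of all genes). In microglia 5 were higher and 2 lower than in DC (5.15% and 6.01%), while 1 was higher in TZM than in microglia (4.25%). Gaa (chromosome 11), which breaks down glycogen, was that gene. Its levels were 8.86, 8.25 and 8.66 in TZM, 6.52, 6.41 and 6.34 in DC, and 7.57, 7.56 and 7.29 in microglia, so microglia lay between the others. The difference was 2.17 (SE 0.15, adjusted p = 1.6e-05) for TZM minus DC and 1.12 (SE 0.15, adjusted p = 0.00097) for TZM minus microglia. The latter was 0.98 without TZM replicate 1, and microglia minus DC fell from 1.05 to 0.9986 without microglia replicate 1, both just under the fold minimum.

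Gla and Hexa, which act on glycolipids, exceeded DC by 1.73 and 1.46 in TZM and by 1.42 and 1.497 in microglia. Idua and Naglu, enzymes of heparan sulfate breakdown, exceeded DC by 1.11 and 1.65 in TZM and by 1.21 and 1.04 in microglia. The Naglu call in microglia was lost without DC replicate 3 (0.85) or microglia replicate 3 (0.98). Glb1, the acid beta-galactosidase, was higher in TZM than in DC by 1.42, and its TZM minus microglia difference was 0.94 (adjusted p = 0.0011), short of the fold minimum.

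The sialidase Neu1 and the beta-mannosidase Manba had differences of 0.97 and 0.74 between TZM and DC, with adjusted p-values of 0.00025 and 0.015, and were not called. Man2b1, an alpha-mannosidase, had means of 10.88 ± 0.03 for TZM, 10.88 ± 0.02 for DC and 10.84 ± 0.04 for microglia. Its largest difference between groups, microglia minus DC, was -0.03 (SE 0.05), and no other member had so small a largest difference.

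The other 2 glycosidases were highest in DC. Fuca1, which removes fucose, was at 9.79, 9.15 and 9.71 in TZM, 10.73, 10.68 and 10.66 in DC, and 8.98, 8.60 and 8.80 in microglia. TZM lay between DC and microglia with no overlap, and differed from DC by -1.14 (SE 0.17, adjusted p = 0.0014). Gusb, the beta-glucuronidase, had mean levels of 8.68 ± 0.57 in TZM, 9.83 ± 0.05 in DC, and 8.42 ± 0.13 for microglia, a difference of -1.15 (SE 0.24, adjusted p = 0.0092) between TZM and DC. TZM replicate 2 was the lowest TZM array for both genes. Without it the TZM minus DC differences were -0.94 for Fuca1 and -0.83 for Gusb, under the fold minimum, which left 3 of the 5 members called lower.

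Sulfatases and the sulfamidase Sgsh did not move as a block. Arsb (chromosome 13), which removes sulfate from dermatan and chondroitin sulfate, was at 6.46, 6.97 and 7.33 in TZM, 10.12, 10.10 and 10.03 in DC, and 10.74, 10.89 and 10.86 in microglia. TZM were far below both other populations, with every TZM array below every other array. The difference was -3.17 (SE 0.19, adjusted p = 5.3e-06) from DC, 8.97-fold, and -3.91 (SE 0.19, adjusted p = 1.9e-06) from microglia, 15.01-fold. Its other probe set gave means of 6.45 in TZM, 9.81 in DC and 10.41 in microglia, in the same order.

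Arsg, a sulfatase of heparan sulfate breakdown, was at 6.03, 6.20 and 6.09 in TZM, 4.52, 4.91 and 4.82 in DC, and 6.70, 6.58 and 6.60 in microglia. Here DC were lowest, with no overlap, and microglia exceeded DC by 1.88 (SE 0.10, adjusted p = 2.7e-06) and TZM exceeded DC by 1.36. Sgsh, which acts in the same degradation path, was higher in TZM than in microglia by 1.06 (SE 0.15, adjusted p = 0.0013), and by 0.86 without TZM replicate 1. Ids and Galns, which cut sulfate from glycosaminoglycans, and Arsa, which cuts it from sulfatide, were called in no comparison, and Arsa was near the low end of the scale, between 4.78 and 5.47 in all arrays.

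The lipid hydrolases and their cofactors went in several directions. Of 6, 2 were higher and 1 lower in TZM than in DC (4.71% and 4.03% of all genes). Against microglia 2 were higher and 0 lower in TZM (4.25% and 3.4%). Pla2g15, the lysosomal phospholipase, was at 8.55, 7.50 and 8.31 in TZM, 4.61, 5.46 and 5.39 in DC, and 8.64, 9.07 and 8.56 in microglia. DC were lowest by a wide margin, and TZM exceeded them by 2.97 (SE 0.32, adjusted p = 0.0002) and microglia by 3.599 (SE 0.32, adjusted p = 4.5e-05). Smpd1, the acid sphingomyelinase, exceeded DC by 1.22 in TZM and 1.63 in microglia, and the former was 0.97 without TZM replicate 1.

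Gm2a, the protein that presents gangliosides to hexosaminidase, was at 10.61, 10.27 and 10.61 in TZM, 11.77, 11.92 and 11.85 in DC, and 9.37, 9.51 and 9.29 in microglia. All 3 groups were apart, DC highest and microglia lowest. The differences were -1.35 (SE 0.11) for TZM minus DC, 1.10 (SE 0.11) for TZM minus microglia and -2.46 (SE 0.11, adjusted p = 5.9e-07) for microglia minus DC. Hexa, whose product works with Gm2a, was in contrast lowest in DC, at 9.31 ± 0.12 against 10.77 ± 0.46 in TZM and 10.80 ± 0.11 in microglia.

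Lipa, the acid lipase that frees cholesterol and fatty acids from engulfed esters, was at 10.38, 10.62 and 10.31 in TZM, 9.87, 9.49 and 9.74 in DC, and 8.7, 8.45 and 9.03 in microglia. It was highest in TZM and lowest in microglia without overlap. TZM exceeded microglia by 1.71 (SE 0.16, adjusted p = 0.00011), while the TZM minus DC difference of 0.74 (adjusted p = 0.012) was under the fold minimum. Psap, the precursor of the saposins that assist sphingolipid breakdown, was at 12.41, 12.10 and 12.35 in TZM, 12.02, 12.05 and 12.03 in DC, and 11.48, 11.47 and 11.17 in microglia. It was lowest in microglia and called in no comparison, the largest difference being 0.92 between TZM and microglia (adjusted p = 0.0004). Asah1, the acid ceramidase, was not called either, with 0.62 between TZM and DC.

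Tpp1 and Ppt1, whose loss in humans causes related neuronal storage diseases, had opposite patterns. Tpp1, a tripeptidyl peptidase, was at 10.68, 10.44 and 10.67 in TZM, 6.90, 6.72 and 7.11 in DC, and 10.13, 10.13 and 10.07 in microglia. DC were lowest, by 3.68 (SE 0.11, adjusted p = 1.1e-07) against TZM and 3.20 (SE 0.11, adjusted p = 1.3e-07) against microglia. Ppt1, which removes palmitate from proteins, was highest in DC, at 11.98 ± 0.03 against 10.02 ± 0.20 in TZM and 10.35 ± 0.02 in microglia. The TZM minus DC difference was -1.96 (SE 0.09, adjusted p = 1.6e-06), and between TZM and microglia it was -0.33 (adjusted p = 0.039), under the fold minimum.

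The acid phosphatases gave the largest positive differences among the members for TZM minus DC. Acp2 (chromosome 2), the lysosomal enzyme, was at 11.02, 10.10 and 10.73 in TZM, 6.59, 6.22 and 6.52 in DC, and 9.64, 9.58 and 9.31 in microglia. DC were far below, and TZM were above microglia without overlap. The difference was 4.17 (SE 0.22, adjusted p = 2.9e-06) for TZM minus DC, 3.07 for microglia minus DC and 1.10 (adjusted p = 0.0083) for TZM minus microglia, the last being 0.90 without TZM replicate 1.

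Acp5 (chromosome 9), the tartrate-resistant acid phosphatase known from osteoclasts and some tissue macrophages, was at 11.32, 10.61 and 11.48 in TZM, 6.93, 7.10 and 6.96 in DC, and 4.46, 4.63 and 4.58 in microglia. TZM stood above both other groups, and unlike for Acp2 microglia were the lowest. TZM exceeded DC by 4.14 (SE 0.20, adjusted p = 1.6e-06) and microglia by 6.58 (SE 0.20, adjusted p = 1.4e-07). The microglia levels were close to the scale's low end, which tends to understate a difference. Of 6 osteoclast markers, 1 was at 6 or more in TZM and in microglia, the transcription factor Nfatc1, and 3 in DC. The osteoclast protease Ctsk was at 4.06 ± 0.10 in TZM and at 4.02 ± 0.06 in DC, and Calcr, the calcitonin receptor, at 4.06 ± 0.08 and 4.13 ± 0.04. The fusion proteins Ocstamp and Dcstamp were lower in TZM than in DC, at 5.12 ± 0.17 against 7.81 ± 0.32 and at 4.87 ± 0.24 against 7.09 ± 0.38.

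**Figure D4:**
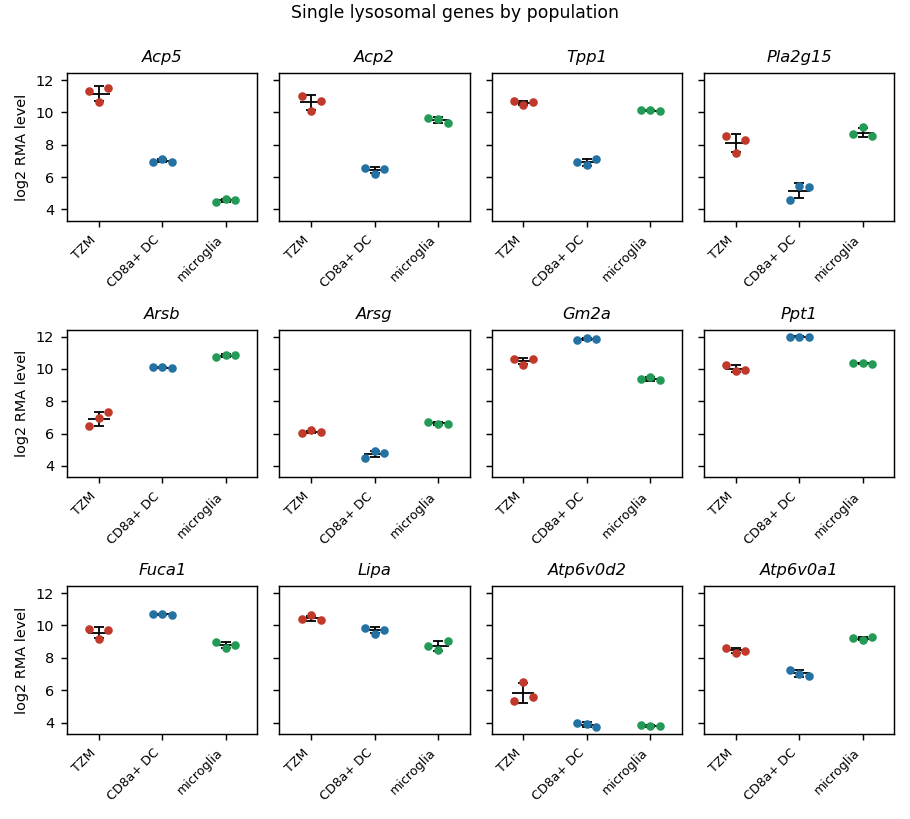
Levels of 12 single members in log2 RMA units by population, with a point for each array and a black bar for the mean ± SD (n = 3). Acp5, Arsb and Atp6v0d2 set TZM apart from both other populations, Tpp1 and Pla2g15 are low in DC, and Gm2a, Ppt1 and Fuca1 are high in DC.

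Subunits of the proton pump split by gene. The membrane-embedded subunit Atp6v0a1 was at 8.61, 8.30 and 8.45 in TZM, 7.26, 7.01 and 6.84 in DC, and 9.20, 9.08 and 9.27 in microglia. It was highest in microglia, 2.15 above DC (SE 0.12, adjusted p = 2.9e-06), and TZM exceeded DC by 1.42. Atp6v1b2, a subunit of the part that splits ATP, was instead highest in TZM, at 9.94, 10.04 and 9.97 against 8.56, 8.73 and 8.66 in DC and 8.61, 8.99 and 8.44 in microglia. DC and microglia overlapped, and TZM exceeded the former by 1.33 (SE 0.13, adjusted p = 0.00012) and the latter by 1.31 (SE 0.13, adjusted p = 0.00015).

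The d subunit, which joins both parts of the pump, has a broadly expressed form and a form known from osteoclasts and some macrophages. The latter, Atp6v0d2 (chromosome 4), was at 5.32, 6.5 and 5.59 in TZM, 3.99, 3.89 and 3.72 in DC, and 3.86, 3.77 and 3.77 in microglia. TZM were higher without overlap but varied among themselves, and DC and microglia overlapped near the low end of the scale. TZM exceeded DC by 1.93 (SE 0.26, adjusted p = 0.00081) and microglia by 1.999 (SE 0.26, adjusted p = 0.00074). Without TZM replicate 2, the highest array, these were 1.59 and 1.65.

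The broad form, Atp6v0d1, was at 8.38, 8.17 and 8.16 in TZM, 7.77, 7.31 and 7.75 in DC, and 7.45, 7.74 and 7.61 in microglia. TZM were again highest, by 0.63 (adjusted p = 0.013) and 0.64 (adjusted p = 0.012), but under the fold minimum. Atp6v1a, the catalytic subunit, was similar in this, with differences of 0.88 and 0.89. Atp6v1c1 was 1.04 higher in microglia than in DC (0.98 without DC replicate 2), and Atp6v1h was called in no comparison.

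The regulators among the members moved less. Tfeb, the best known activator of lysosomal genes, was at 6.77, 6.45 and 6.68 in TZM, 6.31, 6.45 and 6.17 in DC, and 6.45, 6.30 and 6.82 in microglia. All 3 groups overlapped, and the largest difference was 0.32 (SE 0.15, adjusted p = 0.18) for TZM minus DC. Tfe3 was at 7.01, 7.0 and 7.16 in TZM, 6.62, 6.41 and 6.43 in DC, and 7.83, 7.53 and 8.04 in microglia. It was highest in microglia without overlap, 1.32 above DC (SE 0.13, adjusted p = 7.8e-05), and its TZM minus microglia difference was -0.75 (adjusted p = 0.0033). RNA levels do not show where these factors are in the cell, which is how their activity is known to be set.

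Mcoln1, the calcium channel of the lysosomal membrane, was at 7.70, 7.90 and 7.50 in TZM, 6.96, 6.54 and 7.25 in DC, and 7.59, 7.81 and 7.32 in microglia. DC were lowest, TZM and microglia overlapped, and no comparison was called (0.78 for TZM minus DC, adjusted p = 0.024).

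Other MiT factors, from a list of 20 genes for lysosomal sorting and regulation of which 19 were measured, differed more. Tfec, a macrophage-restricted relative of Tfeb, was at 9.5, 8.91 and 9.46 in TZM, 4.13, 3.72 and 3.73 in DC, and 5.08, 4.90 and 5.08 in microglia. TZM stood far above both others, exceeding DC by 5.43 (SE 0.18, adjusted p = 1.8e-07) and microglia by 4.27 (SE 0.18, adjusted p = 8.4e-07). Mitf was at 7.83, 7.91 and 7.61 in TZM, 5.51, 4.36 and 5.37 in DC, and 6.87, 6.87 and 6.95 in microglia. DC were lowest, and TZM exceeded them by 2.70 (SE 0.26, adjusted p = 0.00012). Rragd, a GTPase that couples lysosomal nutrients to growth signalling, exceeded DC by 1.97 and microglia by 2.24 in TZM. In the whole list 4 genes (21.1%) were higher and 1 (5.26%), Rraga (-1.30), lower in TZM than in DC, beside 4.71% and 4.03% of all genes. Against microglia 5 (26.3%) were higher and 1 (5.26%) lower in TZM, beside 4.25% and 3.4%. For microglia against DC, 5 were higher and 3 lower (15.8%), beside 5.15% and 6.01%. All 19 were at 6 or more in 3 arrays, and of all genes at that level 11.8% were called higher and 13.8% lower in this comparison. Igf2r, which delivers hydrolases to the lysosome, was 3.16 higher in TZM than in microglia, and lower in microglia than in DC (-2.45). Sort1, another sorting receptor, was lower in TZM than in microglia (-1.80).

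**Figure D5:**
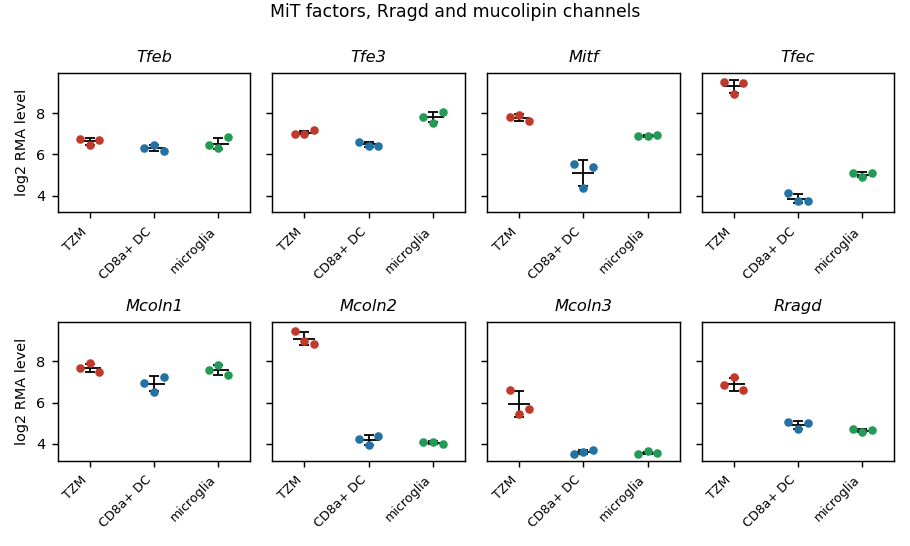
Levels in log2 RMA units by population of the MiT factors Tfeb, Tfe3, Mitf and Tfec, of Rragd and of the mucolipin channels Mcoln1, Mcoln2 and Mcoln3, with a point for each array and a black bar for the mean ± SD (n = 3). Tfeb overlaps between the populations, while Tfec and Mcoln2 are near 9 in TZM arrays and at 5.08 or lower in all others.

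The element that MiT factors bind contains CACGTG, and these letters were looked for in RefSeq promoters (GRCm38.p6), from 250 bases before to 50 after each gene's start. Of 45 members, 38 had an entry. The motif CACGTG, which reads the same on both strands, was in 10 of these 38 (26.3%), against 8.09% of the 27025 genes in the table. The longer TCACGTGA, which holds CACGTG and is also its own reverse complement, was in 4 members (10.5%), Gla, Atp6v0d1, Atp6v1a and Mcoln1, against 1.12% of all genes. The full palindromic CLEAR element, which adds a base on each side, was in 0 of 38 and in 0.37% of all genes. GAGGAAGT, a motif of the macrophage factor Spi1 searched on both strands, was in 2 members (5.3%), Gla and Gusb, and in 3.69% of all genes. By call in TZM against DC, CACGTG was in 5 of 18 members called higher, 0 of 5 called lower and 5 of 15 not called. A match describes letters and is no evidence of binding.

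Shown are 120 bases from the 250 before the start of 7 members that hold CACGTG (in capitals) and were called higher in TZM than in DC or microglia, or, for Mcoln1, hold it more than 1 time. Each is 5′ to 3′ on the gene's strand and ends at the base before the start, except that the stretches of Gla and Gaa end at bases -131 and -51 from it.
Lamp1, chr8:13159041-13159160, plus strand: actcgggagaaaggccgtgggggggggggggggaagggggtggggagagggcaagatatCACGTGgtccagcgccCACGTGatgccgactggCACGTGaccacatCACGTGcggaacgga
Gla, chrX:134601136-134601255, minus strand: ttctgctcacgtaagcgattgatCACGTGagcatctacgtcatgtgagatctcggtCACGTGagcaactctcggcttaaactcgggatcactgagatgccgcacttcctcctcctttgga
Mcoln1, chr8:3500399-3500518, plus strand: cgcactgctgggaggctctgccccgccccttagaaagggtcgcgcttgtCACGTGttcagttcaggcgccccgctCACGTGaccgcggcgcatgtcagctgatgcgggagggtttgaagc
Naglu, chr11:101069974-101070093, plus strand: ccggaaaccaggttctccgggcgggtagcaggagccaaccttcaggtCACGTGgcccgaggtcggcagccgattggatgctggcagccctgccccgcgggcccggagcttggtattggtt
Gaa, chr11:119267793-119267912, plus strand: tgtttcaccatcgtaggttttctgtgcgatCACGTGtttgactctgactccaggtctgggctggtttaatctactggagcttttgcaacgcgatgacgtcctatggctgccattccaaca
Glb1, chr9:114400958-114401077, plus strand: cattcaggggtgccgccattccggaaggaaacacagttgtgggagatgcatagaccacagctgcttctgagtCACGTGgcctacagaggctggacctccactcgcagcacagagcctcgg
Sgsh, chr11:119355511-119355630, minus strand: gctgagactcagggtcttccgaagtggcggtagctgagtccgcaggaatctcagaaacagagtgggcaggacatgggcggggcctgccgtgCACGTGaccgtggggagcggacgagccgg

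Lamp1 holds 4 copies of CACGTG within the stretch shown, and Gla and Mcoln1 hold 2 each. Lamp1, with 4 copies, and Gla and Mcoln1, with 2 each, differed by 1.97, 1.73 and 0.78 between TZM and DC. Acp2, Acp5, Tpp1 and Pla2g15, whose differences between TZM and DC were larger, have no CACGTG in the window searched, and nothing follows from that about the factors.

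Other lysosomal genes were taken from lists that hold no member. Of 24 measured membrane proteins and transporters, 12 (50%) were higher and 1 (4.17%) lower in TZM than in DC, beside 4.71% and 4.03% of all genes. Against microglia 3 (12.5%) were higher and 0 lower in TZM, beside 4.25% and 3.4%. For microglia against DC, 8 (33.3%) were higher and 1 (4.17%) lower, beside 5.15% and 6.01%. Mcoln2, a relative of Mcoln1, was at 9.46, 9.0 and 8.83 in TZM, 4.26, 3.95 and 4.37 in DC, and 4.08, 4.11 and 4.01 in microglia. TZM stood above both, exceeding DC by 4.90 (SE 0.17, adjusted p = 2.4e-07) and microglia by 5.03 (SE 0.17, adjusted p = 2.2e-07). Mcoln3 exceeded DC by 2.31 in TZM and microglia by 2.34, and the chloride transporter Clcn7 by 2.22 and 1.24. Slc15a3, a peptide and histidine transporter, was higher than in DC in both TZM (3.29) and microglia (3.69).

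Of 16 other hydrolases, 6 (37.5%) were higher and 0 lower in TZM than in DC, beside 4.71% and 4.03% of all genes. Against microglia 5 (31.2%) were higher and 0 lower in TZM, beside 4.25% and 3.4%. For microglia against DC, 4 (25%) were higher and 3 (18.8%) lower, beside 5.15% and 6.01%. Of the 16, 15 were at 6 or more in 3 arrays, and of all genes at that level 11.8% were called higher and 13.8% lower in this comparison. Smpdl3a, a phosphodiesterase related to Smpd1, exceeded DC by 1.93 and microglia by 3.31. Plbd1, a phospholipase B-like protein, exceeded microglia by 6.46 (SE 0.29, adjusted p = 1.4e-06) and was -0.43 from DC (adjusted p = 0.40). Galc, which cleaves galactosylceramide of myelin, was higher in TZM than in microglia by 2.18. Plbd1, Smpdl3a and Galc were the 3 called lower in microglia than in DC, at -6.89, -1.39 and -1.29.

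Among 17 other pump subunits, 4 (23.5%) were higher and 1 (5.88%) lower in TZM than in DC, beside 4.71% and 4.03% of all genes. Atp6v0b (1.38), Tcirg1 (1.17) and Atp6ap1 (1.13) were among the former, while Atp6v0a2 was lower (-1.12). Against microglia 1 (5.88%) was higher in TZM, Atp6v1f (1.02), near the 4.25% of all genes. For microglia against DC, 3 (17.6%) were higher and 1 (5.88%) lower, beside 5.15% and 6.01%. The medians of these pump subunits were 0.13 for TZM minus DC and 0.17 for TZM minus microglia, beside 0.90 and 0.64 for the 7 subunits among the members. Only 11 of the former 17 were at 6 or more in 3 arrays, against 6 of the 7, so the medians cover genes of unlike brightness.

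TZM arrays varied more among themselves than the others, with a median SD over the members of 0.20 in TZM, 0.12 in DC and 0.13 in microglia, beside 0.20, 0.13 and 0.16 over all genes at 6 or more in 3 arrays. TZM replicate 2 was the lowest TZM array for 27 of 45 members. It had the highest levels of Bpifa2 and Smr3a, which encode salivary proteins, at 11.998 and 10.42, against 10.24 and 9.19 in replicate 1 and 9.29 and 8.41 in replicate 3. The calprotectin genes were also highest there, S100a8 at 9.28 and S100a9 at 9.39, against 5.89 and 6.21 in replicate 1 and 7.32 and 7.89 in replicate 3. Without TZM replicate 2 the counts against DC were 21 higher and 3 lower, and against microglia 9 higher and 1 lower. Without TZM replicate 1 the count higher than in microglia was 5 instead of 8.

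The 4 members on chromosome X, Lamp2, Gla, Ids and Tfe3, were looked at beside Xist, the RNA of the inactive X. Xist was at 4.16, 4.36 and 8.26 in TZM, 10.17, 9.95 and 9.98 in DC, and 10.55, 10.44 and 10.35 in microglia. Lamp2 and Gla were called higher in TZM than in DC, and Ids and Tfe3 were not called in that comparison. In microglia, Lamp2, Gla and Tfe3 were called higher than in DC, by 1.88, 1.42 and 1.32. None of these members was called between TZM and microglia. The part of the animals' sex in these values was not tested.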

How the data were processed

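RNA of 9 samples was measured on Affymetrix mouse gene arrays. The authors deposited log2 levels after RMA, and the submitters' processing notes name Affymetrix Expression Console 1.3.1; further settings were not given in the sources used here. Of 35556 probe sets (values 2.04 to 13.6), the 21789 with 1 gene symbol in the platform annotation were used, and 21698 of these matched RefSeq genes of GRCm38.p6 by Entrez identifier. The brightest probe set by mean over all arrays was kept for the 999 genes with more than 1.

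A limma 3.58.1 model (R 4.3.3) with a mean per population was fitted to all 9 arrays and moderated by eBayes, after a check on simulated data. The number of arrays limits the precision. The labels call the replicates biological without saying what separates them, so p-values measure the spread between these samples. No batch is named. The members and lists were chosen with earlier results of these data known, so counts over them are descriptions without a set test. Per-array values were given for the 8 largest called differences in each comparison and 10 preset members. From each other pathway list up to 4 called genes per comparison were to be named by size of difference, and not all of these are given here. Alternatives varied the fold minimum (none), the level (at least 6 in 3 arrays), median centring, quantile normalization, probe sets (their mean, or every one), the groups fitted, the variance model (trended and robust), weights per array, the replicate block and each array left out.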

Additional observations from a re-analysis of the deposited data

How the results depend on the processing

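Of the 58 called differences of single members, 49 kept direction and call under every alternative that gave a value. The other 9 were lost only on leaving out an array. The level filter left out Arsa and Atp6v0d2. Counts moved by over 1.5 times in these cases. With no minimum fold change, 32 members were higher in TZM than in DC, 21 were higher and 6 lower in TZM than in microglia, and 8 were lower in microglia than in DC, since smaller differences then count. Leaving out each array gave 20 to 22 higher and 3 to 5 lower for TZM minus DC, 5 to 9 higher and 1 lower for TZM minus microglia, and 17 to 18 higher and 5 to 6 lower for microglia minus DC.

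Signs turned for differences near 0 that were not called under any alternative run. With median centring, Atp6v1b2 in microglia minus DC was -2.42e-04. With quantile normalization, Man2b1 was at 0.0273 for TZM minus DC, and Atp6v0d1 and Atp6v1a were at 0.0493 and 0.0593 for microglia minus DC. With array weights, Man2b1 was at 5.88e-04 (TZM minus DC), Hexa at 0.0515 (TZM minus microglia), and Atp6v1a and Atp6v1b2 at 0.0462 and -0.0143 (microglia minus DC). Leaving out single arrays gave -0.0206 to 0.0121 for Man2b1 in TZM minus DC. In TZM minus microglia the ranges were -0.1744 to 0.2252 for Hexa, -0.0813 to 0.2758 for Ids, -0.3418 to 0.0380 for Atp6v1c1, -0.0038 to 0.2567 for Tfeb and -0.0026 to 0.2456 for Mcoln1. In microglia minus DC they were -0.1620 to 0.0693 for Atp6v0d1, -0.0857 to 0.0766 for Atp6v1a, -0.1312 to 0.1452 for Atp6v1b2 and -0.0109 to 0.1340 for Npc2. The cause was not tested.

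The replicate numbers showed no clear pairing of the samples, though 3 arrays a group cannot exclude a pairing. Correlations of deviations between arrays of one number ran from -0.15 to 0.13, and 5 of 9 arrays correlated best with their own number. With the replicate block, the counts were 21 higher and 5 lower for TZM minus DC, 8 and 1 for TZM minus microglia, and 18 and 5 for microglia minus DC, with no call of a member changed. Levels near the low end, as of Atp6v0d2 outside TZM and Acp5 in microglia, are not separated from background, since no detection call was used.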
